A study of Mus musculus with 9 samples.

Results

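The comparison described here is between 2 groups of mouse gastrocnemius muscle, both injected with cisplatin, of which 1 also received RP by mouth. It rests on 6 of the 9 libraries of the study, the 3 titled Cisplatin and the 3 titled RP, and on all 12859 genes that passed an expression filter, out of 23238 gene symbols. All mice were female C57BL/6, an inbred laboratory strain, obtained at 4 weeks of age. The Cisplatin group received 4 intraperitoneal injections of 3 mg/kg cisplatin, a platinum drug that crosslinks DNA, on alternate days, and distilled water by mouth for 9 days in a row. The RP group received those 4 injections of 3 mg/kg cisplatin and, in place of plain water, 100 mg/kg RP in water on the 9 days. The Normal group, whose 3 libraries are given here as a reference level, received saline injections and water. The labels do not spell out RP; in the series title the agent is a Paeonia lactiflora (peony) extract. RP was given to no group without cisplatin, and an action of RP on healthy muscle and an action on the response to cisplatin cannot be told apart. The labels do not say that each library is its own mouse, and p-values therefore measure the spread between these libraries, which may be technical in part. Body weight, food intake and muscle mass are not analysed here.

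Skeletal muscle loses mass when protein breakdown outruns protein synthesis. During wasting the fibres raise a set of ubiquitin ligases that tag contractile proteins, raise the proteasome and autophagy machinery that degrades them, and lower genes of energy metabolism. FoxO transcription factors, glucocorticoids and inflammatory cytokines are the classic signals that switch on this programme, and IGF1 acting through AKT holds it down. Cisplatin adds DNA damage, which stabilises p53, and is a heavy metal compound, a class of agent that metallothioneins bind.

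Levels are counts scaled to a common library total (CPM) after TMM scaling, which corrects library totals for their composition. Changes are log2 fold changes of RP over Cisplatin ± SE from edgeR's quasi-likelihood test on the raw counts, with Benjamini-Hochberg adjusted p over all 12859 genes. A gene is said to have risen or fallen where that p is under 0.05. A gene is called held where it missed that threshold and its 95% interval lay inside a 1.5-fold change in either direction; a gene that is neither is open, since its interval was too wide to say. Held refers to the main test, and held genes called as risen under another scaling, filter or test are named with the narrowest held genes below. Values of 3 libraries are given in the order of replicates 1, 2 and 3.

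Library totals were 8352397 to 10678342 counts in Cisplatin and 9178613 to 9826089 in RP. The ribosomal RNA precursor Rn45s took 9.23 to 12.1% of the counts in Cisplatin and 7.38 to 11.8% in RP, and its part in the differences was not tested beyond leaving it, or the library of each group with its highest share, out. The tissue matched its label: the 8 muscle fibre markers checked were present in all 6 libraries, from a lowest value of 512 CPM for Myh2 to 32089 CPM for Myh4, whose products are fast myosin heavy chains. Markers of skin were at or near 0, with 5 of 16 keratinocyte genes passing the filter and none of these rising or falling. Of lymphocyte markers, 3 of 20 passed the filter and none was called, although 1 rose without Cisplatin replicate 1.

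RP replicate 2 lay farthest from Cisplatin: it had the highest RP value for 53.3% of the genes that rose and the lowest for 54.5% of those that fell. Cisplatin replicate 3 had the highest Cisplatin value for 63.8% of the fallen genes. Counts of 5 or more that move by over 1.5 times when a single library is left out are given beside the counts below. Smaller counts that moved as much are given for some lists only.

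The muscle transcriptome of the RP group differed from that of Cisplatin over much of the expressed genome. Of the 12859 genes, 3167 rose (24.6%) and 3110 fell (24.2%), together 48.8%. Falls were smaller than rises: 1892 of the fallen and 1123 of the risen genes changed by under 2-fold, and 207 and 788 by over 4-fold. The 3 RP libraries lay all above or all below the 3 Cisplatin libraries for 7310 genes (56.8%). Held genes numbered 1610 (12.5%) and the other 4972 were open. Over all genes the median change was 0.07 on the log2 scale. With library size as the sole scaling it was 0.21, so directions below are relative to the TMM scale, and 3678 genes rose and 2435 fell on that scale. Against Normal, by contrast, the RP libraries differed at 65 genes (0.505%), 24 higher and 41 lower. That count depended on single libraries: it was 22 without Normal replicate 1 or RP replicate 1, 28 without RP replicate 3, 33 without Normal replicate 3, 40 without Cisplatin replicate 2, 100 without Normal replicate 2, 102 without Cisplatin replicate 3 and 116 without RP replicate 2. It was 293 with no filter, and with library size as the sole scaling 36 were higher and 24 lower. Of 23 genes named below with a called difference from Normal, 11 were called whichever library was left out. A p that misses the threshold does not show equality, and with 3 libraries a group the intervals were wide for most genes.

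**Figure D1:**
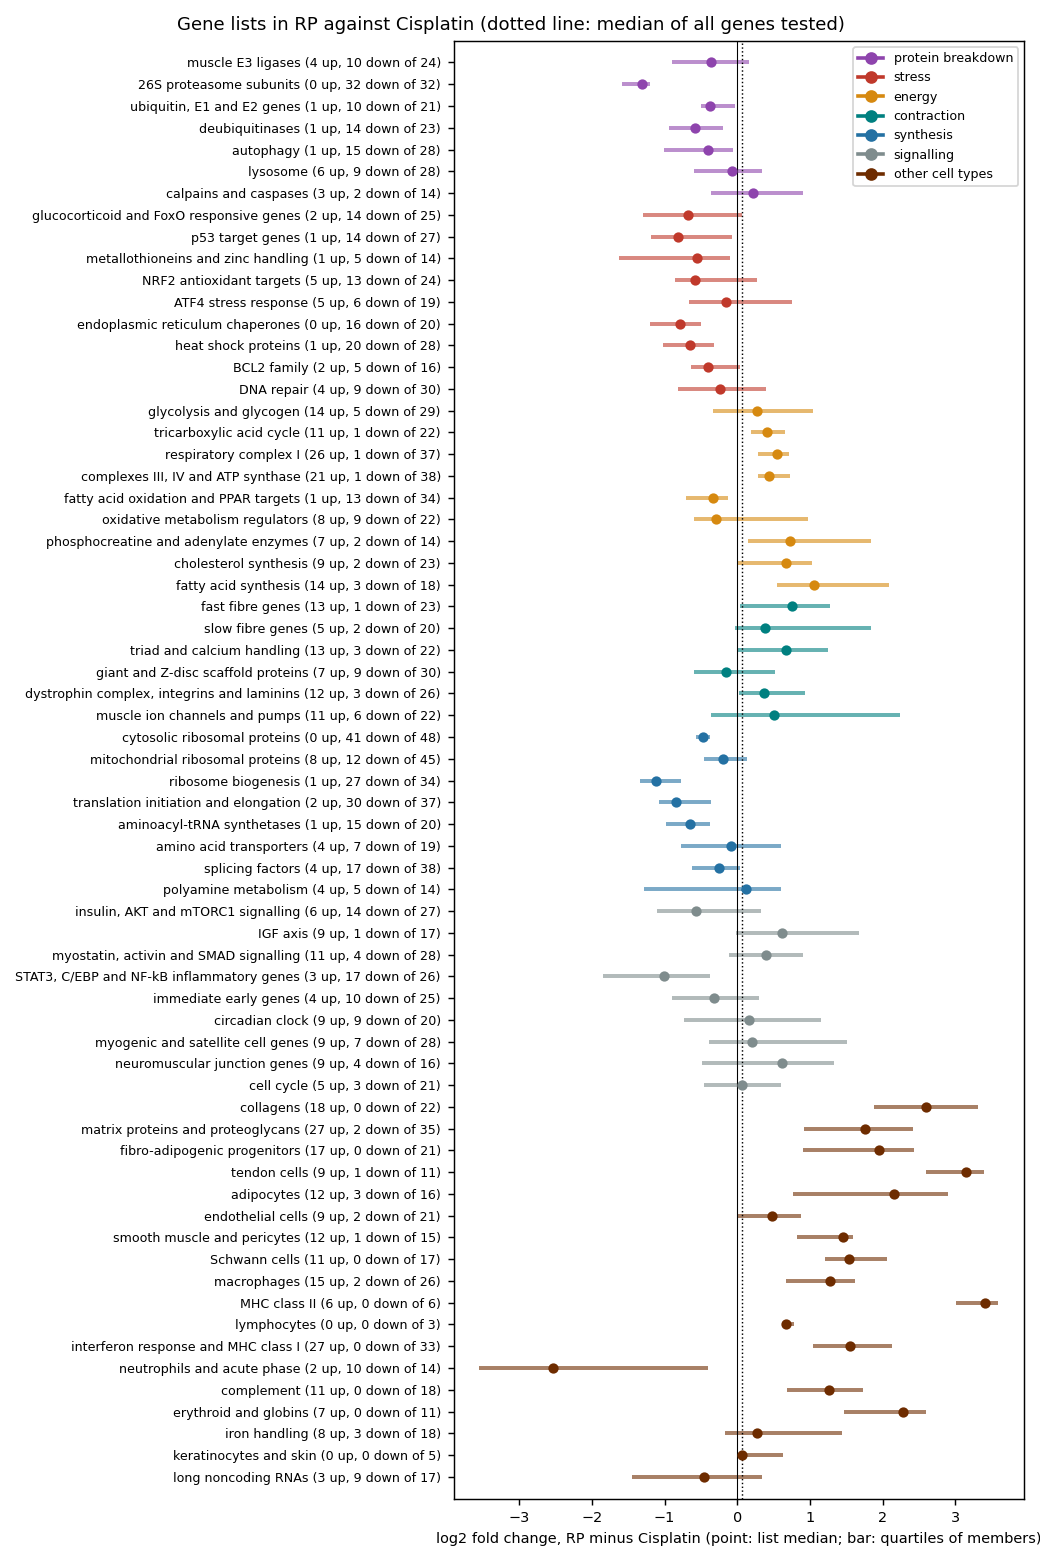
Median log2 fold change of RP over Cisplatin (horizontal axis) for each of the 66 gene lists (vertical axis, with counts of tested members that rose and fell); points are list medians and bars run from the lower to the upper quartile of the members. Proteasome subunits (median -1.32) lay among the lowest and MHC class II genes (3.41) were highest, against a median of 0.07 over all genes (dotted line).

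The plot of list medians gives the outline. Lists of the proteasome, autophagy, protein folding, ribosome production, translation and acute inflammation had negative medians, while lists of collagens, matrix, stromal cell types, interferon response, fatty acid synthesis and respiratory chain had positive medians. Lists were described by counts and medians only, and no list was tested as a whole. Counts below are to be read beside the shares of all genes tested, of which 24.6% rose and 24.2% fell. The share called in either direction was close to the 48.8% of all genes for several lists. Among these were Z-disc scaffolds (53.3%), lysosome (53.6%), mitochondrial ribosomal proteins (44.4%) and the BCL2 family (43.8%).

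**Figure D2:**
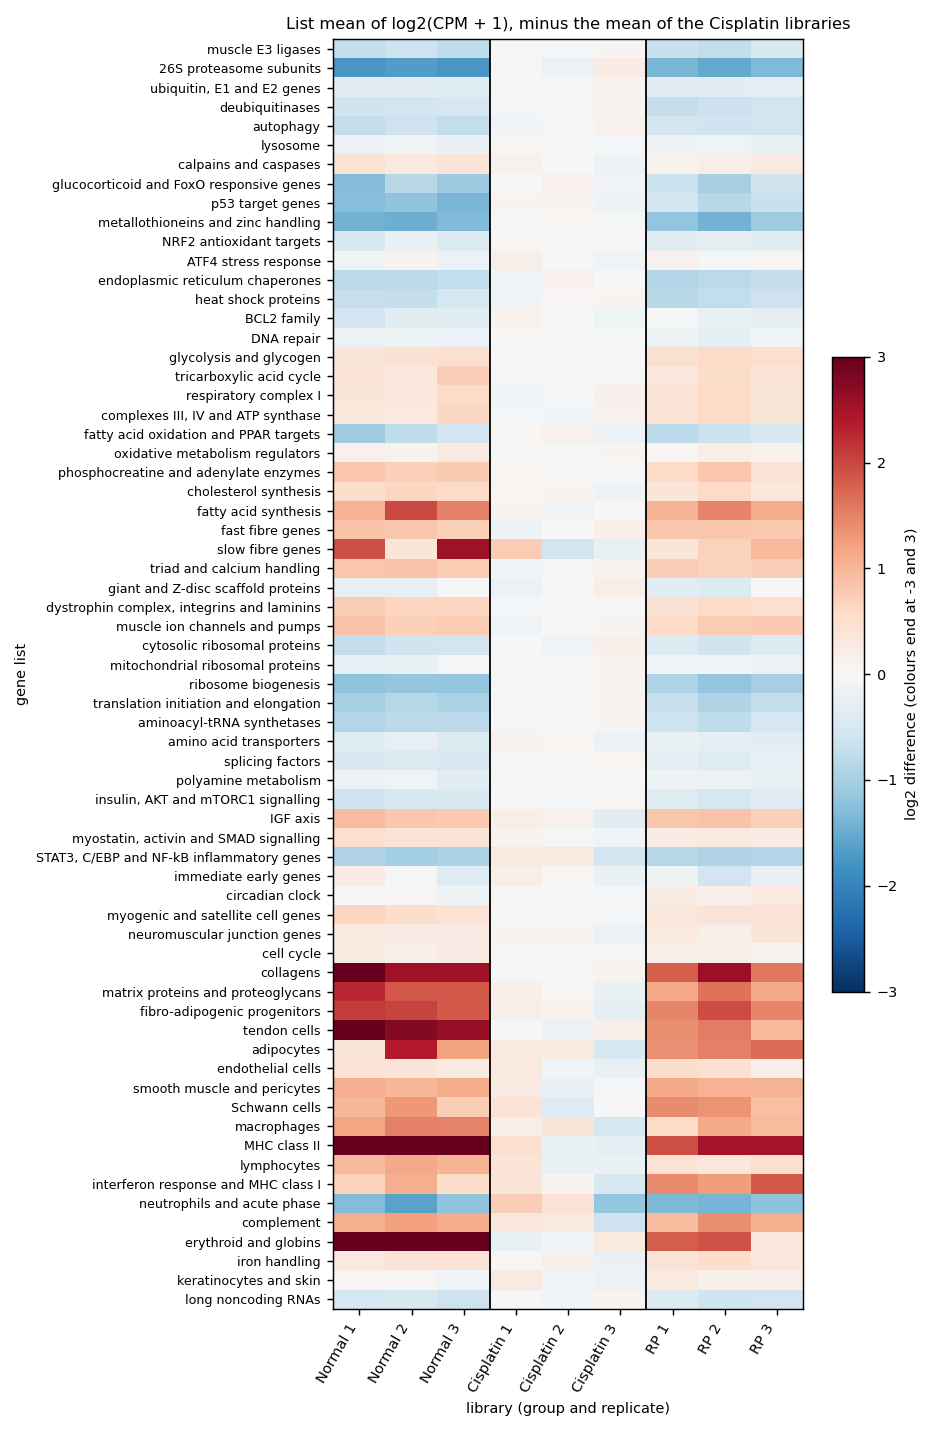
Mean over each list of log2(CPM + 1) in each of the 9 libraries (columns), expressed as the difference from the mean of the 3 Cisplatin libraries (colour; red is higher, blue lower, ending at -3 and 3). Rows are the 66 lists in the order of the text; the 3 RP columns can be read against the Cisplatin columns beside them and against the Normal columns at the left.

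The 2 ligases that mark muscle atrophy had the largest falls among the ubiquitin ligases listed. Trim63 (MuRF1), which ubiquitinates thick filament proteins, lies on chromosome 4, 134315120 to 134329629 on the plus strand of GRCm38. It stood at 8811, 10896 and 11299 CPM in the Cisplatin libraries, at 587, 462 and 797 CPM in RP and at 490.01, 659 and 486 CPM in Normal. Every RP library was below every Cisplatin library and inside or near the Normal range, a log2 fold change of -4.07 ± 0.23 (adjusted p = 8.11e-08). Fbxo32 (atrogin-1), the substrate receptor of an SCF ligase, lies on chromosome 15, 58175879 to 58214932 on the minus strand. Its levels were 8155, 10204 and 11868 CPM in Cisplatin, 550.2, 292 and 659 in RP and 343, 472 and 334 in Normal, a log2 fold change of -4.33 ± 0.29. RP replicate 2 was the lowest library of the RP group for both ligases.

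The 250 bases before the RefSeq start of Trim63 (chr4:134314870-134315119, plus strand of GRCm38.p6) are printed because they hold, side by side, a match to the glucocorticoid response element and to the forkhead box that FoxO factors bind, shown in capitals.

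Trim63: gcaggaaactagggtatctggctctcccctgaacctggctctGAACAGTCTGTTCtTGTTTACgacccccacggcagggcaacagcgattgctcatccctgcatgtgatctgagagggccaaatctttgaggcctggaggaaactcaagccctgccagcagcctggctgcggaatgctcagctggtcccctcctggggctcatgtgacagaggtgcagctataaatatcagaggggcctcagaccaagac

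The glucocorticoid element was searched as GNACANNNTGTNC and the forkhead box as GTAAACA, on both strands, and in Trim63 they begin 208 and 194 bases before the start without overlapping. Of all 32851 mouse promoter windows of this length, 0.387% hold the first and 3.17% the second. Of the 31 windows of the list of glucocorticoid and FoxO responsive genes, 1 holds the first and 1 the second (3.23% each). A match is a string of letters and was not shown to be bound. Fbxo32 has no entry in the promoter table.

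Over the E3 ligase list both directions occurred. Of 24 tested, 10 fell, 4 rose and 4 were held, with a median of -0.36. Fbxo31, an F-box protein of the cell cycle, fell from 551, 576 and 524 to 111, 78.8 and 108 CPM (-2.47 ± 0.16), and Trim54 (MuRF3), a close relative of MuRF1, fell by 1.47 on the log2 scale. Against the majority, Fbxo21 (1.29), Trim32 (1.16) and Fbxw7 (1.08) were among those that rose. Stub1 (CHIP), which pairs with heat shock proteins, was held at 0.23 (95% interval -0.07 to 0.53), as was Nedd4 (-0.37 to 0.20). Stub1 was called without RP replicate 2 (adjusted p = 0.0445).

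The proteasome moved as a block. All 32 of the 26S subunits tested fell, in the 20S core and the 19S cap alike, with a median of -1.32 and a range from -2.31 for Psmd4 to -0.74 for Psma3. Psmd11, a lid subunit, went from 567, 571 and 727 CPM to 156, 137 and 173 CPM, with 125, 131 and 124 CPM in Normal. No RP library overlapped the Cisplatin range for this subunit (-2.0 ± 0.14, adjusted p = 3.50e-07). Psmc4, an ATPase of the cap, fell by 1.91 and Adrm1, a ubiquitin receptor, fell by 1.66 on the log2 scale. Conjugating enzymes were less uniform: of 21 ubiquitin, E1 and E2 genes 10 fell and 7 were held, the activating enzyme Uba1 among them (-0.50 to -0.00), while Ube2d1 rose (1.25). Among 23 deubiquitinases 14 fell, led by Uchl1 (-3.15 ± 0.35) and Usp28 (-1.79). Usp14, which trims ubiquitin at the proteasome, fell from 148 ± 23.4 to 58.01 ± 7.86 CPM (mean ± SD, n = 3 each).

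Autophagy genes moved in part. Of 28 tested, 15 fell and 9 were held. The fallen genes included those that coat the autophagosome and carry cargo: Gabarapl1 (-2.63 ± 0.19), Bnip3 (-1.97), Map1lc3b (-1.54) and Sqstm1 (-1.43). The kinase gene Ulk1, which starts autophagy, was held (-0.51 to 0.07), Atg9a too (-0.01 to 0.56), and Ulk2 rose (0.74 ± 0.13). Lysosomal genes split: 9 of 28 fell, 6 rose and 9 were held. The cathepsin gene Ctsl fell from 584, 468 and 484 to 206, 177 and 178 CPM, and the cholesterol exporter gene Npc1 fell by 2.66, while Ctsk, the collagen-cleaving cathepsin of bone and stroma, rose (2.26 ± 0.55). The calcium proteases Capn1 and Capn2 were held, at -0.37 to 0.32 and -0.03 to 0.46. Their shared small subunit Capns1 (-0.58) and their inhibitor Cast (-1.20) fell, and Capn5 rose from 0, 0.0951 and 0 to 1.34, 1.69 and 1.21 CPM (4.84 ± 0.86). Of the caspase genes tested, Casp12 rose (1.31) and the others were not called.

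Genes that glucocorticoids and FoxO factors raise in muscle followed in part: 14 of 25 fell. Cebpd, a transcription factor gene of the acute response, went from 789, 787 and 552 to 213, 168 and 215 CPM (-1.84 ± 0.21), and the mTORC1 inhibitor gene Ddit4 fell by 1.75. Sgk1, a kinase gene that glucocorticoids raise in many tissues, was held (-0.31 to 0.42). Bcl6 rose (0.73), against the direction of most of the list. The receptor gene Nr3c1 rose by a small amount (0.33 ± 0.12) and was not called without Normal replicate 3, Cisplatin replicate 1, Cisplatin replicate 2, RP replicate 1, RP replicate 2 or RP replicate 3 (adjusted p of 0.0507 to 0.116), or with RLE scaling.

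**Figure D3:**
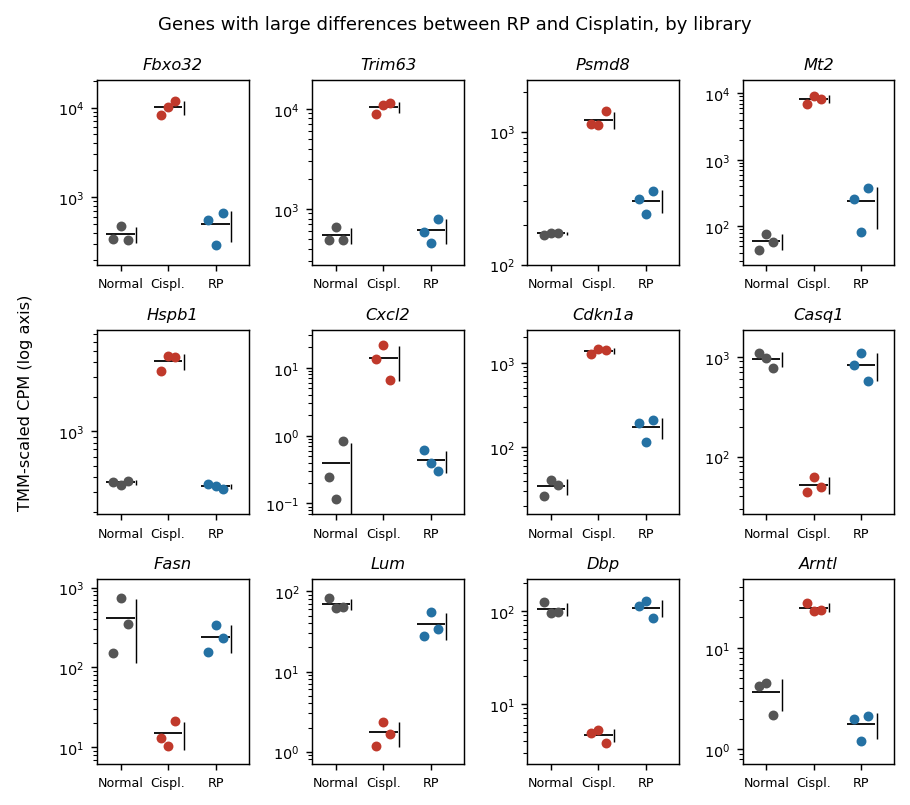
Level in each library (points; log axis, TMM-scaled CPM) of 12 genes in Normal, Cisplatin and RP, with the mean (horizontal line) and SD (vertical line) of 3 libraries. For Fbxo32, Trim63, Psmd8, Mt2, Hspb1, Cxcl2, Cdkn1a and Arntl each RP point lies below each Cisplatin point, and for Casq1, Fasn, Lum and Dbp each lies above.

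The largest falls of all named genes were those of the metallothioneins, small cysteine-rich proteins that bind zinc, copper and heavy metals. Mt1 stood at 9925, 13035 and 10308 CPM in Cisplatin, at 353, 135 and 406 CPM in RP and at 66.8, 125 and 123 CPM in Normal. Mt2 stood at 6994, 9206 and 8312, 258, 82.3 and 378 and 44.1, 76.8 and 58.5 CPM in the same order. RP replicate 2 was near Normal for both genes, whereas RP replicates 1 and 3 were above it. The log2 fold changes over Cisplatin were -5.22 ± 0.39 and -5.09 ± 0.45 (adjusted p = 5.02e-07 and 1.71e-06). Over Normal the RP group kept a difference of 2.0 ± 0.40 for Mt2 (adjusted p = 0.0425), and for Mt1 the difference of 1.5 ± 0.34 missed the threshold (adjusted p = 0.074). The Mt2 difference from Normal was not called without Normal replicate 1 or 3, Cisplatin replicate 1 or 2 or RP replicate 1 or 3 (adjusted p of 0.0603 to 0.219), and that of Mt1 was called without RP replicate 2 (adjusted p = 0.0035).

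The promoter windows of these 2 neighbours on chromosome 8 are shown because they carry the core of the metal response element, the site of the zinc sensor MTF1, in capitals. The window of Mt1 is chr8:94178839-94179088, plus strand and that of Mt2 is chr8:94172368-94172617, plus strand, both of GRCm38.p6 and from RefSeq.

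Mt1: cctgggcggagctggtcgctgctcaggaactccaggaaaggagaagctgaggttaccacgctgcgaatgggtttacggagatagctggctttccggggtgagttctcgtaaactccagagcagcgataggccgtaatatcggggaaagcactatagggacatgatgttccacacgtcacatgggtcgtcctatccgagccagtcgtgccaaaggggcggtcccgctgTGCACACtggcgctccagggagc
Mt2: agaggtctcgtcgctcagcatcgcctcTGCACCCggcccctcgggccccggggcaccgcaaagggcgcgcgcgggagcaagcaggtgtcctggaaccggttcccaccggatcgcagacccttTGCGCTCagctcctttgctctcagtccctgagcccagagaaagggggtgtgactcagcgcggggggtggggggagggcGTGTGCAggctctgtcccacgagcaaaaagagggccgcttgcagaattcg

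The core was searched as TGCACNC or TGCGCNC on both strands, and 21.4% of all promoter windows hold it. Among windows of tested genes the share was 27.7% for those that rose, 30.8% for those that fell and 29.2% for those not called. The list of metallothioneins and zinc handling has 13 windows, of which 6 hold it (46.2%). Mt1 has 1 copy, beginning 23 bases before the start, and Mt2 has 3, beginning 223, 128 and 50 bases before it, none overlapping another. The gene of the sensor itself, Mtf1, was held (-0.34 to 0.39). Other zinc genes did not share one direction: the importer Slc39a14, which inflammation raises in liver and muscle, fell from 36.8, 53.05 and 24.2 to 4.24, 3.67 and 4.24 CPM (-3.23 ± 0.29), Slc39a7 of the secretory pathway fell (-1.20), and the exporter Slc30a1, another target of MTF1, rose (1.0 ± 0.17). Of the 14 genes of this list 5 fell and 4 were held.

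Chaperone genes fell in both the cytosol and the endoplasmic reticulum. Of 28 heat shock genes 20 fell, with a median of -0.65. Hspb1, the small heat shock protein HSP27, went from 3321, 4491 and 4442 CPM to 348, 334 and 318 CPM, against 367, 341 and 375 CPM in Normal. The RP libraries overlapped the Normal range and lay far below Cisplatin (-3.62 ± 0.16). Hsp90ab1 fell by 1.27, the chaperonin subunit gene Cct2 fell by 1.13 and Dnajb2 fell by 1.47. The mitochondrial chaperonin gene Hspd1 was held (-0.53 to 0.16), as was Dnaja1 (-0.50 to 0.05), and Dnajb5 rose (0.58). In the endoplasmic reticulum 16 of 20 fell and none rose, among them the master chaperone gene Hspa5 (BiP; -1.73 ± 0.20), the transcription factor gene Xbp1 (-1.23) and the co-chaperone genes Dnajb9 (-1.53) and Dnajc3 (-1.07).

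Antioxidant genes under NRF2 moved both ways: 13 of 24 fell and 5 rose. Gclm, a subunit of the enzyme that limits glutathione synthesis, fell from 72.8, 62.9 and 86.6 to 18.7, 13.6 and 18.6 CPM, and Srxn1 (-1.5), Sod1 (-1.41) and Txn1 (-0.93) fell. Tkt, a pentose phosphate enzyme gene, rose (2.13 ± 0.38), with Gsta4 (1.73) and Gpx1 (0.80). Gpx4, the lipid peroxide reductase, was held (-0.18 to 0.44), as was Gstm1 (-0.40 to 0.25). Risen NRF2 genes numbered 3 without Cisplatin replicate 1 or without RP replicate 2.

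DNA damage genes did not all fall. Of 27 p53 target genes 14 fell, with a median of -0.82. Cdkn1a (p21), the inhibitor that halts the cell cycle after damage, went from 1263, 1449 and 1439 CPM to 196, 117 and 209 CPM. Normal libraries were at 26.8, 41.1 and 35.7 CPM, so RP lay below Cisplatin (-2.99 ± 0.22) and still above Normal in every library (2.33 ± 0.22, adjusted p = 3.85e-04). Trp53inp1 showed the same order, at 269, 222 and 285 CPM in Cisplatin, 77.6, 48.1 and 85.5 in RP and 26.3, 42.4 and 27.8 in Normal. Its difference from Normal was not called without Normal replicate 1 or 3, Cisplatin replicate 1 or 2 or RP replicate 1 or 3 (adjusted p of 0.0561 to 0.241). Sesn1 fell by 2.5, and Ccng1, another p53 target, rose (1.10 ± 0.12). Tigar (-0.40 to 0.33) and Ei24 (-0.28 to 0.38) were held.

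Of the 27 p53 target genes, 12 showed no called change from Cisplatin in the main test. Gdf15, a stress hormone that acts on appetite centres of the brainstem, was at 25.3, 23.3 and 9.99 CPM in Cisplatin and 14.7, 8.74 and 11.5 CPM in RP. Its groups overlapped (-0.75 ± 0.33, adjusted p = 0.0762), and Normal lay far below at 0.483, 0.116 and 0.722 CPM, a difference of RP from Normal of 4.69 ± 0.51 (adjusted p = 7.50e-04). Eda2r, a receptor gene of the TNF family, was at 23.97, 23.6 and 11.9 CPM in Cisplatin, 16.4, 14.2 and 24.5 in RP and 5.19, 8.67 and 5.05 in Normal (-0.11 ± 0.29 over Cisplatin, 1.54 ± 0.31 over Normal, adjusted p = 0.0478 for the latter). Both intervals over Cisplatin, -1.46 to -0.04 and -0.73 to 0.51, were wide and left a fall of over 1.5-fold possible. Over Cisplatin Gdf15 was called without Cisplatin replicate 3 (adjusted p = 0.00701). It was also called as fallen with no filter (adjusted p = 0.0342) and without Cisplatin replicate 3 and RP replicate 3 together (adjusted p = 0.0188). Over Normal Eda2r was not called without Normal replicate 1 or 3, Cisplatin replicate 1 or 2 or RP replicate 1 or 3 (adjusted p of 0.0603 to 0.222).

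Of 30 DNA repair genes 9 fell and 4 rose, and the share called in either direction was 43.3%, against 48.8% of all genes (24.2% fell and 24.6% rose). Xpa (-1.69 ± 0.24), Ercc1 (-1.24) and Ercc3 (-1.16), of nucleotide excision repair, the pathway that removes platinum adducts, were among the fallen. Ogg1 (1.18), of base excision repair, and Parp1 (0.60) were among the risen. The damage kinase gene Atm was held (-0.35 to 0.29), as was Rad50 (-0.23 to 0.36). Of 16 BCL2 family genes 5 fell, on both sides of the family: Mcl1 (-0.97) and Bcl2l1 (-0.85), which keep cells alive, and Bad (-0.57), which does the reverse. Bok rose from 0.235, 0.76 and 0 to 2.27, 2.28 and 1.21 CPM (2.40 ± 0.73) and Bcl2 rose (0.84), while Bak1 was held (-0.37 to 0.27). Bok was not called without Cisplatin replicate 1 (adjusted p = 0.0522). Fallen BCL2 family genes numbered 3 without any 1 of Cisplatin replicates 1 and 2 or RP replicates 2 and 3, and risen repair genes numbered 2 without Cisplatin replicate 3 or RP replicate 1.

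Of 19 genes of the ATF4 stress response 6 fell and 5 rose. The factor itself (Atf4, -1.39 ± 0.17) and the phosphatase subunit gene Ppp1r15a (-2.19), which turns off the stress signal to eIF2, fell. Of the serine synthesis enzymes, Psph rose from 0.47, 0.475 and 0 to 5.17, 7.85 and 3.93 CPM (4.06 ± 0.56) and Phgdh rose from 0.588, 0.0951 and 0.238 to 2.998, 2.09 and 3.13 CPM (3.15 ± 0.70). Chac1 (2.45), Nupr1 (1.95) and Pck2 (1.13) rose too.

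Inflammation moved in 2 directions. Most cytokine and acute phase genes fell, whereas most interferon and antigen presentation genes rose. Of 26 STAT3, C/EBP and NF-kB genes 17 fell, with a median of -1.01. That count was 10 without Cisplatin replicate 2 or with library size as the scaling. Cxcl2, a neutrophil attractant, was at 13.4, 21.3 and 6.54 CPM in Cisplatin and under 1 CPM in each RP library (0.62, 0.397 and 0.303), as in Normal (0.242, 0.116 and 0.842). The interleukin 6 receptor gene Il6ra fell (-2.20 ± 0.28), while its partner chain Il6st rose by a little (0.43 ± 0.12) and the related Lifr rose (1.07 ± 0.18). Tnfrsf12a (Fn14), the receptor of the wasting cytokine TWEAK, fell from 11.4, 16.2 and 12.7 to 2.38, 1.99 and 2.42 CPM. The TNF receptor gene Tnfrsf1a was held (-0.32 to 0.48). Ccl8, a monocyte attractant, had no count in the 3 Cisplatin libraries and 29 over RP, at least 8.94-fold higher when Cisplatin is set at a floor of 3 counts for the whole group.

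Acute phase and granulocyte genes fell in 10 of 14 cases, a count of 6 without Cisplatin replicate 1 or 2 or with limma-voom, and of 5 with a filter of 5 CPM. Lcn2, an iron-trapping acute phase protein, was at 100.3, 105 and 46.4 CPM in Cisplatin, 5.17, 1.29 and 7.77 in RP and 0.483, 1.04 and 0.963 in Normal. Cisplatin replicate 3 was the lowest of its group, and each RP library lay below it (-4.15 ± 0.44). Chil3, a chitinase-like protein of myeloid cells, went from 25.3, 11.9 and 7.61 to 0.724, 0.497 and 0.908 CPM (-4.37 ± 0.53), Retnlg fell (-3.51 ± 0.67) and the protease inhibitor gene Serpina3n fell by 3.51. Orm1, a plasma protein gene chiefly of liver, rose (1.81). The summed level of the list was 111 to 470.2 CPM in Cisplatin, 88.3 to 98.2 in RP and 87.8 to 103 in Normal. Defining granule genes of neutrophils were at or near 0 counts over the Cisplatin and RP groups: Mpo and Elane at 0 in both, Ltf at 3 and 0, Camp and Ngp at 5 and 3 each. Over the Normal group the counts were 2 for Mpo, 7 for Elane, 15 for Ltf, 52 for Camp and 41 for Ngp. These granule genes did not pass the filter and are not in that sum.

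Of 33 interferon response and MHC class I genes 27 rose, 0 fell and the median was 1.56. Igtp (Irgm3), an immunity-related GTPase, was at 4.58, 5.61 and 4.16 CPM in Cisplatin, 42.2, 30.7 and 55.5 in RP and 13.5, 21.6 and 10.9 in Normal. All 3 RP libraries exceeded all 6 others, by 3.15 ± 0.29 over Cisplatin and 1.47 ± 0.26 over Normal (adjusted p = 2.19e-06 and 0.0244). Tap1, the peptide transporter that loads MHC class I, was at 6.81, 6.18 and 5.12 CPM in Cisplatin, 18.7, 16.6 and 31.3 in RP and 6.04, 8.09 and 10.1 in Normal, 1.87 ± 0.27 over Cisplatin and 1.46 ± 0.27 over Normal. Over Normal, Igtp was not called without Normal replicate 1 or 3 or RP replicate 1 or 3 (adjusted p of 0.108 to 0.124), nor Tap1 without Normal replicate 1, 2 or 3, Cisplatin replicate 2 or RP replicate 1 or 3 (adjusted p of 0.0512 to 0.143). The related GTPase genes Iigp1 (3.57), Irgm2 (2.80) and Gbp7 (2.98) rose over Cisplatin. The median of the list over Normal was 0.70, although beside Tap1 and Igtp no member was called there. Irf8 (-0.53 to 0.50) and the loading factor gene Tapbp (-0.31 to 0.29) were held. Isg20, an interferon-induced nuclease gene outside the list, ran the other way, at 14.2, 14.5 and 13.6 CPM in Cisplatin, 6.82, 10.3 and 6.46 in RP and 18.4, 16.8 and 24.1 in Normal (-0.84 ± 0.22 over Cisplatin, -1.32 ± 0.22 over Normal). The latter was not called without Normal replicate 1 or 3 or RP replicate 1 or 3 (adjusted p of 0.0543 to 0.131).

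The window before Igtp (chr11:58199306-58199555, plus strand of GRCm38.p6) is printed since it holds a site of each kind that interferon signalling uses, in capitals: a STAT site (GAS) and an interferon-stimulated response element (ISRE).

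Igtp: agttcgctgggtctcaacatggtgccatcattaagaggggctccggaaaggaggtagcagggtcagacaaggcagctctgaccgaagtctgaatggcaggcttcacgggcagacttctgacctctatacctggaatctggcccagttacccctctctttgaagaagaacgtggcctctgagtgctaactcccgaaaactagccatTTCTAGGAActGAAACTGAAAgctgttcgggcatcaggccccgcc

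The GAS was searched as TTCNNNGAA and the ISRE as GAAANNGAAA on both strands, and they begin 45 and 34 bases before the start. The matches do not overlap. Of all promoter windows 7.02% hold the GAS and 2.98% the ISRE. The interferon list has 33 windows, which belong to 27 of its genes, and 13 of these windows hold the ISRE (39.4%).

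Macrophage markers rose in 15 of 26 cases and fell in 2, Cd68 (-2.01) and Cd14 (-1.5). C1qb rose (1.48 ± 0.24) and Aif1 rose (2.62 ± 0.47), and Cd209f, a lectin of resident macrophages, went from 0, 0 and 0.119 to 1.65, 3.08 and 1.11 CPM. Timd4 had no count in Cisplatin and 39 over RP, at least 12.0-fold higher. Their summed level was 106 to 220.5 CPM in Cisplatin, 289.7 to 416 in RP and 427 to 545 in Normal. All 6 MHC class II genes tested rose, of 11 listed. Cd74, the invariant chain, was at 2.47, 1.33 and 0.595 CPM in Cisplatin and 11.7, 18.1 and 12.6 in RP, below 53.5, 66.3 and 54.7 CPM in Normal, and the RP group fell short of Normal (-2.04 ± 0.25 on the log2 scale, adjusted p = 0.00182). The part of macrophage and antigen presenting cells in the interferon values was not tested. Complement genes rose in 11 of 18 cases, C1s1 (2.24), C1ra (1.60) and Serping1 (1.22) among them, and none fell. These are whole-muscle libraries, in which fewer cells of a type and less RNA per cell cannot be told apart.

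Genes that build ribosomes and start translation fell along with the breakdown genes. Of 34 ribosome biogenesis genes 27 fell, with a median of -1.12. Rrp12, which exports ribosomal subunits, was at 56.2, 60.9 and 63.8 CPM in Cisplatin, 12.8, 10.8 and 9.99 in RP and 11.6, 11.4 and 12.9 in Normal. The RP and Normal libraries overlapped and both lay under Cisplatin (-2.43 ± 0.15 over Cisplatin). Tsr1 (-2.18), Nop14 (-2.08) and Taf1d (-2.23) fell, Wdr12 (-0.55 to 0.16) and Nop16 (-0.39 to 0.22) were held, and Dkc1, the pseudouridine synthase, rose (0.45 ± 0.16). Dkc1 was not called without Cisplatin replicate 1, Cisplatin replicate 2 or RP replicate 3 (adjusted p of 0.0624 to 0.151).

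Cytosolic ribosomal protein genes fell by small amounts in 41 of 48 cases, with a median of -0.47. The count was 27 without RP replicate 2 or with library size as the scaling. Rpl5 (-0.77), Rpl11 (-0.78), Rpl30 (-0.78) and Rps6 (-0.83) led, and Rpl32 (-0.52 to 0.01) and Rps3 (-0.45 to 0.05) were held. These genes have many near-identical pseudogene copies, so reads may be divided among them and single values are uncertain. Mitochondrial ribosomal protein genes did not follow: 12 of 45 fell, 8 rose and 16 were held, with Mrps18b at -1.22 and Mrpl28 at 1.16.

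Initiation and elongation factor genes fell in 30 of 37 cases. Eif4ebp1, the repressor of cap-dependent translation, was at 664, 694 and 721 CPM in Cisplatin and 138, 82.6 and 127 CPM in RP, with Normal at 39.98, 75.3 and 57.03 CPM (-2.58 ± 0.23). Other initiation factor genes fell as well, Eif3a (-2.10), Eif1a (-1.92) and the poly(A) binding protein gene Pabpc1 (-1.65). The gene of the kinase that slows elongation, Eef2k, rose slightly (0.51 ± 0.14). Eif4g2 (-0.04 to 0.51) and Eef1b2 (-0.33 to 0.19) were held. Among tRNA synthetases 15 of 20 fell, led by Vars (-1.52), Sars (-1.25) and Aars (-1.15). Wars, which interferon gamma is known to raise, was the member that rose (0.58 ± 0.18) and was not called without Cisplatin replicate 2, Cisplatin replicate 3 or RP replicate 3 (adjusted p of 0.0573 to 0.0917).

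Amino acid transporter genes split, 7 falling and 4 rising of 19. Slc43a2 (-2.80), Slc7a8 (-2.14) and Slc43a1 (-1.67), which carry large neutral amino acids, fell, and the glutamine carrier gene Slc1a5 rose (1.33). In polyamine synthesis Odc1 fell by 1.87 and Srm fell by 1.96, while Amd1 (1.0) and the oxidase gene Smox (1.44) rose. Splicing factor genes fell in 17 of 38 cases and were held in 13, with Hnrnpa1 at -1.62 and Hnrnpf at -1.59, and with Srsf2 (-0.32 to 0.27) and Srsf6 (-0.17 to 0.42) held. Of 17 long noncoding RNAs 9 fell, 3 rose and 5 were not called. Gas5, a host gene of small nucleolar RNAs, fell from 406, 336 and 634 to 96.96, 66.8 and 90.5 CPM (-2.44 ± 0.22), and Snhg1 (-2.36), Snhg12 (-2.31) and Snhg5 (-1.71) were among the fallen too.

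Genes of the respiratory chain rose by small, even steps. Of 37 complex I genes 26 rose, with a median of 0.54, and Ndufa10 fell (-0.53 ± 0.13). Risen complex I genes numbered 17 without RP replicate 2. Ndufb8 was at 432, 442 and 484 CPM in Cisplatin, 805, 914 and 778 in RP and 841, 816 and 1021 in Normal. The RP libraries were all above the Cisplatin libraries (0.88 ± 0.14). In complexes III and IV and ATP synthase 21 of 38 rose, such as Cyc1 (1.13), Cycs (1.0) and Cox7a1 (1.14), and the subunit gene Cox8a fell (-0.79 ± 0.13). Tricarboxylic acid cycle genes rose in 11 of 22 cases and were held in 8, with Idh3a at 1.07, Dlat at 1.14 and Ogdh held (-0.15 to 0.37).

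Of 29 glycolysis and glycogen genes 14 rose and 5 fell. The enolase gene Eno3 rose from 737, 856 and 728 to 2916, 3124 and 2552 CPM (1.89 ± 0.14), and Gpd1, which links glycolysis to glycerol 3-phosphate, rose from 39.5, 39.4 and 34.03 to 297, 362 and 284 CPM (3.06 ± 0.15). Phkg1, a subunit of the kinase that starts glycogen breakdown, rose (2.12). The 5 fallen genes included Gys1 (-0.79) and Ugp2 (-1.33) of glycogen synthesis, the phosphoglucomutase gene Pgm1 (-2.15 ± 0.44) and the glycolytic isomerase gene Gpi1 (-0.50). Pgm2, a relative of Pgm1, rose (2.41 ± 0.17). The annotation behind these symbols is not named, so which phosphoglucomutase each stands for is uncertain. The insulin-responsive glucose transporter gene Slc2a4 (-0.42 to 0.14) and the hexokinase gene Hk2 (-0.30 to 0.32) were held. Pfkfb3, which makes the activator of phosphofructokinase, was at 254, 246 and 155 CPM in Cisplatin and 163, 180.4 and 145 CPM in RP, overlapping (-0.42 ± 0.23, adjusted p = 0.147). Each RP library was above each Normal library (47.5, 67.4 and 31.8 CPM), by 1.73 ± 0.24 (adjusted p = 0.0045). Between RP and Cisplatin it was called without Cisplatin replicate 3 (adjusted p = 0.0355).

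Lists of fatty acid oxidation and fatty acid synthesis had medians of opposite sign. Of 34 fatty acid oxidation and PPAR target genes 13 fell and 10 were held. Acot1, a thioesterase that PPAR alpha controls, was at 232, 195 and 162 CPM in Cisplatin and 5.89, 4.67 and 6.86 CPM in RP, beside 2.42, 4.86 and 5.90 CPM in Normal (-5.08 ± 0.25). Its neighbour Acot2 fell by 3.0, Ucp3 fell by 1.56 and Mlycd fell by 1.81, while the dehydrogenase gene Acadm was held (-0.41 to 0.20), as was Etfb (-0.54 to 0.00). Acot1 and Acot2 are close copies, and the division of reads between them is uncertain.

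Fatty acid synthesis genes rose in 14 of 18 cases (median 1.06), a count of 9 without RP replicate 2. Fasn, the fatty acid synthase, was at 13.2, 10.4 and 21.4 CPM in Cisplatin, 157, 341 and 233 in RP and 153, 748 and 349 in Normal. Every RP library was far above every Cisplatin library (4.03 ± 0.50). Elovl6 (3.42 ± 0.45) and Thrsp (3.57 ± 0.38) rose, and Acacb (-1.25), the isoform that restrains fat import into mitochondria, fell with Dgat2 (-0.83). Adipocyte markers moved with them: 12 of 16 rose (median 2.16) and 3 fell, with a summed level of 4248 to 5276 CPM in Cisplatin, 4244 to 5204 in RP and 3902 to 7494 in Normal. Retn, an adipocyte hormone, rose (3.69 ± 0.59), Lipe rose (2.26) and Car3 rose (2.05), whereas Plin4 (-0.86), Lpl (-1.0) and Pnpla2 (-1.48) fell. Risen adipocyte genes numbered 7 without Cisplatin replicate 3 and RP replicate 3 together. The part of fat cells in the synthesis values was not tested. Ucp1, the marker of brown fat, had 0 counts over Cisplatin and over RP and 60 over Normal.

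Cholesterol synthesis genes rose in 9 of 23 cases, or 5 without RP replicate 2, with Dhcr7 at 3.52 ± 0.70 and Fdps at 1.80. In this list 2 genes fell, Fdft1 (-1.18) among them, and 12 were not called. Its summed level did not rise, at 332 to 369 CPM in Cisplatin, 273 to 335 in RP and 292 to 304 in Normal. Of 22 regulators of oxidative metabolism 9 fell and 8 rose, with a median of -0.30. Esrra (-1.35) was among the fallen, and Esrrg (1.99), Ppargc1a (1.07), Perm1 (1.01) and Sirt3 (1.95) were among the risen. Among the enzymes that buffer ATP, Ckmt2 (1.96) and Ak1 (1.89) rose and Ampd3, an AMP deaminase gene that atrophy raises, fell from 48.8, 62.4 and 72.9 to 6.93, 6.36 and 7.47 CPM (-3.15 ± 0.21).

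Over the list of fast fibre genes 13 of 23 rose and 1 fell, with a median of 0.75. The fallen count was 2 without RP replicate 3. Myosin heavy chain genes did not move together. Myh4, the heavy chain of the fastest fibres, was held, at 23713, 23109 and 32089 CPM in Cisplatin and 31979, 24525 and 29009 in RP (95% interval -0.32 to 0.55). Myh2, the heavy chain of fast oxidative fibres, rose from 512, 603 and 738 to 1034, 1465 and 1778 CPM (1.21 ± 0.33, adjusted p = 0.008). Casq1, the calcium store protein of fast fibres, was at 43.9, 62.7 and 49.8 CPM in Cisplatin, 827, 1085 and 574 in RP and 1099, 968 and 777 in Normal. The RP libraries lay far above Cisplatin and overlapped Normal (3.99 ± 0.24, adjusted p = 1.28e-07). Myoz3 (3.04) and Tpm1 (1.35) were among the risen genes, and Mylk2, the kinase of fast myosin light chain, fell (-0.84 ± 0.16).

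Slow fibre genes were mostly open. Of 20 tested, 5 rose, or 11 without Cisplatin replicate 1 and 3 with a filter of 5 CPM, and 2 fell. Casq2 (2.67 ± 0.38) and the myoglobin gene Mb (1.81 ± 0.30) rose. Ankrd2, a stretch-responsive titin partner, was at 1281, 2040.1 and 1493 CPM in Cisplatin, 57.1, 82.6 and 124 in RP and 88.2, 89.7 and 253 in Normal, the largest fall in the contraction lists (-4.19 ± 0.41). Myh7b fell (-0.98).

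Triad genes, which couple the nerve impulse to calcium release, rose in 13 of 22 cases. Sypl2 (mitsugumin 29), a membrane protein of the triad, went from 9.87, 13.6 and 8.09 to 191, 304 and 217 CPM (4.48 ± 0.23), with Cacnb1 (2.36), Jph2 (1.43) and Cav3 (1.31). Bin1 (-0.61) and Fkbp1a (-0.38) fell. Hrc (-0.22 to 0.34) and Cacng1 (-0.29 to 0.27) were held.

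Among ion channels and pumps 11 of 22 rose and 6 fell. The summed level of the list was nonetheless lower in RP, at 6092 to 8360 CPM in Cisplatin, 4601 to 4793 in RP and 4366 to 5137 in Normal. Aqp4, the water channel of fast fibres, was at 0.588, 1.52 and 0.952 CPM in Cisplatin and 22.5, 44.5 and 32.1 in RP, with 42.998, 35.5 and 65.9 in Normal (4.96 ± 0.38). Slc8a3 (3.79) and the pump subunit gene Atp1b2 (2.60) rose, and the potassium channel partner gene Abcc8 fell (-2.96 ± 0.39). Fxyd1 was held (-0.13 to 0.48).

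Scaffold genes of the Z-disc moved both ways. Flnc (-2.32 ± 0.20) and Xirp1 (-2.62 ± 0.28) fell. The PDZ and LIM protein genes Ldb3 (1.05), Pdlim7 (1.16), Pdlim3 (1.07) rose, with Synpo2 (1.08) and Smyd1 (0.56). Over that list 9 of 30 fell and 7 rose. In the dystrophin complex and its matrix partners 12 of 26 rose. The laminin genes Lama2 (2.33 ± 0.20) and Lamb1 (1.78) and Nid1 (1.49) rose, the dystrophin gene Dmd (-0.66 ± 0.22) and its partner Dag1 (-0.68) fell, and Itga7 (-0.17 to 0.53) and Sgcb (-0.46 to 0.07) were held. Dmd was not called without Cisplatin replicate 3, RP replicate 1 or RP replicate 2 (adjusted p of 0.0786 to 0.124), and fallen genes of this list numbered 1 without RP replicate 2.

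IGF axis genes rose in 9 of 17 cases. Igf1, the growth factor that opposes atrophy, was at 14.5, 17.02 and 8.21 CPM in Cisplatin, 47.3, 73.8 and 47.9 in RP and 94.5, 82.3 and 66.5 in Normal (2.08 ± 0.25). Igfbp5, its main binding protein in muscle, went from 23.97, 35.9 and 29.5 to 223, 334 and 229 CPM (3.13 ± 0.22). The growth hormone receptor gene Ghr (1.74 ± 0.18) and Stat5b (0.99), which carries its signal, rose, and the receptor genes Igf1r (-0.30 to 0.27) and Igf2r (-0.45 to 0.16) were held. Igfbp3 fell (-0.90 ± 0.31) and was not called without Cisplatin replicate 1, Cisplatin replicate 2, RP replicate 1 or RP replicate 2 (adjusted p of 0.0536 to 0.135). Cish, a target of STAT5, was at 15.7, 11.4 and 7.26 CPM in Cisplatin and 18.6, 14.6 and 10.7 in RP, not called (0.35 ± 0.28), and below Normal at 38.6, 40.4 and 62.1 CPM (-1.68 ± 0.27, adjusted p = 0.0151). The latter was not called without Normal replicate 3 or RP replicate 3 (adjusted p of 0.07 to 0.0843).

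Below the receptors, 14 of 27 insulin, AKT and mTORC1 genes fell and 6 rose. Rheb, the activator of mTORC1, fell (-1.34 ± 0.12). Among its brakes Sesn1 and Ddit4 fell, as above, while Deptor (1.54) and Ddit4l (2.39) rose. Akt2 (-0.26 to 0.37) and Pik3ca (-0.08 to 0.47) were held, and Irs1 rose (0.93). In the myostatin and SMAD list 11 of 28 rose and 4 fell. Inhbb, a chain of activin B, was at 34.2, 40.1 and 38.2 CPM in Cisplatin and 3.72, 4.57 and 2.62 in RP (-3.36 ± 0.47). Smad3 rose (2.18 ± 0.24), Smad4 (-0.52), Smad1 (-0.77) and Tgfbr2 (-0.68) fell, and Smad5 (-0.41 to 0.21) and Bmpr1a (-0.23 to 0.56) were held. The myostatin gene Mstn itself was held, at 44.8, 49.2 and 49.1 CPM in Cisplatin and 51.1, 42.5 and 57.3 in RP (-0.43 to 0.58).

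Myogenic genes had no common direction, with 9 of 28 rising and 7 falling, the latter count being 4, 3 or 2 without Cisplatin replicate 3, RP replicate 1 or RP replicate 2. Mef2c rose (2.44 ± 0.15) and Heyl rose (1.69), and Sdc4 fell (-1.89). Actc1, the cardiac actin of immature fibres, was at 33.3, 33.6 and 41.6 CPM in Cisplatin, 249, 474 and 136 in RP and 1534, 817 and 803 in Normal, above Cisplatin (2.99 ± 0.38) and below Normal (-1.88 ± 0.36, adjusted p = 0.0371). Against Normal it was not called without Normal replicate 1 or 3, Cisplatin replicate 1 or 2 or RP replicate 1 or 3 (adjusted p of 0.0561 to 0.253). Of 16 neuromuscular junction genes tested 9 rose and 4 fell, with a median of 0.61. Ache, the enzyme that clears acetylcholine, rose from 0.352, 0.475 and 0.476 to 5.38, 4.97 and 2.52 CPM. Among genes that denervation raises, Musk (-3.03 ± 0.32), Runx1 (-1.88) and Gadd45a (-0.93) fell. Chrna1, which denervation raises as well, rose (1.14 ± 0.17).

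Core clock genes moved in opposite directions: 9 of 20 rose and 9 fell, the latter 5 without RP replicate 2 or with library size as the scaling. Dbp, an output gene that CLOCK and BMAL1 switch on, was at 4.93, 5.23 and 3.81 CPM in Cisplatin, 112, 129 and 83.5 in RP and 124, 94.6 and 97.2 in Normal (4.53 ± 0.21). Arntl, which encodes BMAL1 and peaks in antiphase to Dbp in the daily cycle, was at 27.96, 23.2 and 23.8, 1.96, 1.19 and 2.12 and 4.23, 4.51 and 2.17 CPM (-3.82 ± 0.30). Bhlhe41 rose (2.30), Rora fell (-1.80), and Cry1 (-0.33 to 0.52) and Tef (-0.04 to 0.47) were held. Collection times are not in the labels, so a difference in the hour of collection and an effect of treatment cannot be told apart for these genes.

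Among clock genes 2 stood above both other groups. Nr1d1 (REV-ERB alpha), which represses Arntl, was at 42.9, 42.5 and 39.6 CPM in Cisplatin, 60.3, 71.2 and 71.2 in RP and 25.8, 36.7 and 31.5 in Normal (0.70 ± 0.15 over Cisplatin, 1.11 ± 0.15 over Normal). Ciart, a repressor of CLOCK and BMAL1, was at 9.16, 6.94 and 9.04 CPM in Cisplatin, 14.99, 14.4 and 21.2 in RP and 1.93, 4.74 and 1.44 in Normal (1.01 ± 0.32 over Cisplatin, 2.63 ± 0.35 over Normal). For both, all RP libraries exceeded the other 6. Per1 lay between, at 71.6, 73.3 and 64.4, 60.5, 45.8 and 52.9 and 28.6, 30.9 and 22.3 CPM, lower than Cisplatin (-0.40 ± 0.15) and higher than Normal (0.96 ± 0.16). Against Cisplatin Per1 was not called without Normal replicate 1, Cisplatin replicate 1, Cisplatin replicate 2, RP replicate 2 or RP replicate 3 (adjusted p of 0.0548 to 0.17) and Ciart was not called without Cisplatin replicate 2 or RP replicate 3 (adjusted p of 0.0668 to 0.0777). Against Normal Per1 was not called without Normal replicate 1 or 3 or RP replicate 1 or 3 (adjusted p of 0.0575 to 0.11).

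The window before Ciart (chr3:95882229-95882478, minus strand of GRCm38.p6, read along the gene) is shown for its 3 copies of the E-box CACGTG, the site of CLOCK and BMAL1, in capitals.

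Ciart: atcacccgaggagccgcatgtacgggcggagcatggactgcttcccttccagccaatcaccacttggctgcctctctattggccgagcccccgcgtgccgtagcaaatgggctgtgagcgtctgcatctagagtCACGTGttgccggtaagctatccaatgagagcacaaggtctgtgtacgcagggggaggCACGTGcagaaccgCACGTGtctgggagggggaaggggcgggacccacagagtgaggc

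They begin 116, 58 and 44 bases before the start and do not overlap, and 6.02% of all windows hold at least 1 copy on either strand. Among windows of tested genes the share was 6.89% for those that rose, 9.48% for those that fell and 8.23% for those not called. The clock list has 24 windows, of which 6 hold it (25%). Immediate early genes, which answer stimuli within minutes, moved both ways, 10 of 25 falling and 4 rising. The fallen count was 6 without Cisplatin replicate 2 or without RP replicate 2. Maff (-2.95 ± 0.32) and Junb (-2.36 ± 0.35) fell, and Nr4a1 (1.93), Dusp1 (1.53) and Klf2 (0.91) rose.

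Of 22 collagen genes 18 rose, 0 fell and the median was 2.60. Col6a3, a chain of the collagen that ties fibres to the matrix, was at 4.23, 5.32 and 4.52 CPM in Cisplatin, 66.9, 144 and 69.3 in RP and 202, 104 and 111 in Normal. No RP library overlapped the Cisplatin range (4.31 ± 0.36). Col1a2, of fibrillar collagen, was at 26.2, 29.7 and 29.6, 197, 443 and 219.6 and 1769, 618 and 709 CPM in the same order, above Cisplatin (3.33 ± 0.40) and below Normal (-1.85 ± 0.37, adjusted p = 0.0425). Its difference from Normal was not called without Normal replicate 1 or 3, Cisplatin replicate 1 or 2 or RP replicate 1 or 3 (adjusted p of 0.0541 to 0.275). The basement membrane chain gene Col4a1, which endothelium makes, was held (-0.24 to 0.46).

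Matrix protein genes rose in 27 of 35 cases. The proteoglycan genes Lum (4.46 ± 0.31) and Ogn (3.10 ± 0.16) were among them, and Lox, the collagen crosslinking enzyme, fell (-0.86 ± 0.25) with Thbs1 (-1.09 ± 0.26). Lox was not called without Cisplatin replicate 1 (adjusted p = 0.0538). Markers of fibro-adipogenic progenitors, the stromal cells that make this matrix, rose in 17 of 21 cases and none fell. Without Cisplatin replicate 3, 1 of these markers fell. Pi16 went from 0.47, 0.57 and 0.952 to 14.8, 22.2 and 9.99 CPM (4.55 ± 0.36) and Clec3b from 2.35, 1.62 and 0.238 to 29.98, 48.9 and 27.04 CPM (4.63 ± 0.41). Their summed level was 750.5 to 1453 CPM in Cisplatin, 2504 to 3490.1 in RP and 2968 to 3971 in Normal, and their part in the collagen values was not tested.

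Tendon markers rose in 9 of 11 cases, or 5 with limma-voom or with the 2 groups alone. Fmod, a tendon proteoglycan, was at 1.29, 0.856 and 2.38 CPM in Cisplatin, 13.6, 19.2 and 15.2 in RP and 96.02, 64.1 and 48.9 in Normal, above Cisplatin (3.43 ± 0.35) and below Normal (-2.12 ± 0.26, adjusted p = 0.00192). Kera had no count in Cisplatin and 34 over RP, at least 10.5-fold higher, and the median of the list was the same with Kera at that bound. Summed tendon levels were 89.3 to 116 CPM in Cisplatin, 117 to 137 in RP and 299.6 to 699 in Normal; how much tendon was taken with each muscle is not in the labels, and its part was not tested.

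Smooth muscle and pericyte markers rose in 12 of 15 cases, Pdgfrb (1.63) and Mylk (1.53) among them. Their summed level overlapped between the groups, at 1714 to 1946 CPM in Cisplatin and 1589 to 2110 in RP, beside 1680 to 1714 in Normal. Endothelial markers rose in 9 of 21 cases, with Ptprb at 0.88, Eng held (-0.36 to 0.39) and the tight junction gene Cldn5 falling (-1.86 ± 0.41). Schwann cell genes rose in 11 of 17 cases, or 7 without RP replicate 2 or with a filter of 5 CPM. The myelin gene Mbp rose (2.69 ± 0.44).

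Blood genes stayed far from Normal. The haemoglobin gene Hba-a1 was at 24.6, 34.7 and 40.2 CPM in Cisplatin, 199.6, 259 and 46.8 in RP and 2713, 4641 and 5595 in Normal. RP was above Cisplatin (2.34 ± 0.47, adjusted p = 0.00102) and below Normal (-4.68 ± 0.50, adjusted p = 7.50e-04). Of 11 erythroid genes 7 rose over Cisplatin, or 4 with limma-voom, and 7 were lower than in Normal. Globin copies are near-identical and share reads, so these are not separate measurements. Alas2, the haem synthesis enzyme of red cells, was at 1.06, 0.285 and 1.55 CPM in Cisplatin, 2.89, 1.69 and 1.01 in RP and 10.1, 32.6 and 31.9 in Normal, not called between the first 2 (0.99 ± 0.65) and lower in RP than in Normal (adjusted p = 0.00317). In iron handling the muscle gene Hfe2 (2.0) and the reductase gene Steap3 (2.32) rose, Ftl1 (-0.91) fell, and Fth1 was held (-0.50 to 0.09).

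**Figure D4:**
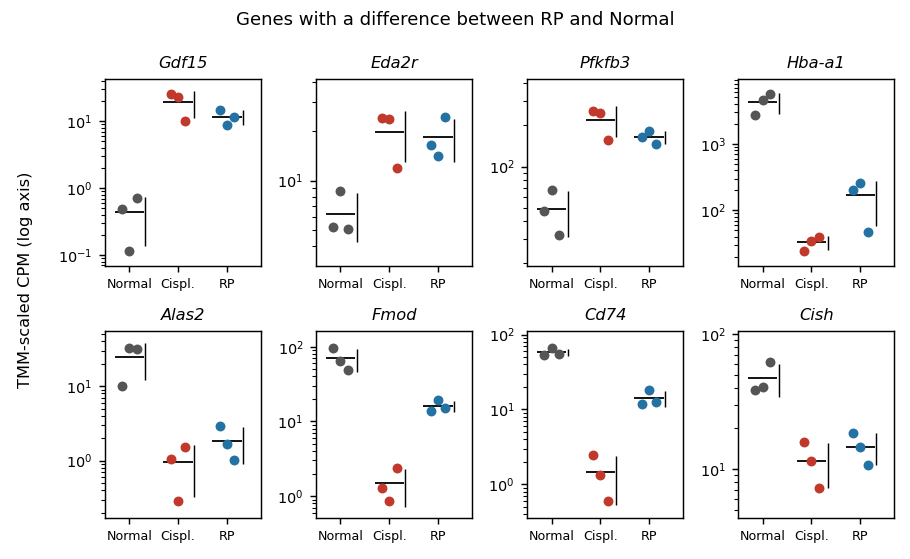
Level in each library (points; log axis, TMM-scaled CPM) of 8 genes with a called difference between RP and Normal, with the mean (horizontal line) and SD (vertical line) of 3 libraries a group. Gdf15, Eda2r and Pfkfb3 lie above Normal in each RP library, and Hba-a1, Alas2, Fmod, Cd74 and Cish lie below it.

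Among named genes averaging 5 CPM or more whose groups did not overlap, the largest rise was that of Tmem233, at 0.352, 0 and 0.833 CPM in Cisplatin, 21.2, 16.5 and 23.9 in RP and 23.7, 26.02 and 15.9 in Normal (5.75 ± 0.47). Mybph, a myosin binding protein, went from 2.35, 2.66 and 1.31 to 80.7, 119 and 42.9 CPM (5.24 ± 0.41). Ky, a Z-disc protease whose loss bends the spine of mice, went from 5.99, 4.85 and 6.07 to 148, 207 and 111 CPM (4.79 ± 0.29). Myoc (5.01), Cpq (5.0), Adora1 (4.86), Plcd4 (4.87) and Nrep (4.79) rose by similar amounts. Among falls, AA467197 went from 23.3, 28.3 and 11.3 to 1.24, 0.993 and 0.706 CPM (-4.41 ± 0.40), and the fatty acid receptor gene Ffar4 (-3.48 ± 0.50) and Cnksr1 (-3.46 ± 0.22) fell too.

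A few genes set the RP libraries apart from both other groups while Cisplatin and Normal did not differ by the test. Slc25a25, a mitochondrial carrier of ATP and magnesium, was at 24.6, 36.6 and 30.8 CPM in Cisplatin, 60.8, 52.6 and 74.8 in RP and 20.4, 24.1 and 25.5 in Normal (1.03 ± 0.18 over Cisplatin, 1.43 ± 0.18 over Normal). Stard3, a cholesterol carrier of late endosomes, was at 13.7, 10.6 and 13.7, 31.3, 31.4 and 32.6 and 15.8, 16.2 and 14.1 CPM (1.33 ± 0.16 and 1.05 ± 0.16). Both had all RP libraries above the other 6. Kctd12b (5.89, 5.46 and 6.56 CPM in RP, against 12.9, 14.1 and 14.5 in Cisplatin and 9.54, 15.96 and 14.7 in Normal) and Ppfibp2 (6.51, 6.16 and 6.96, 10.5, 11.1 and 14.5 and 13.6, 14.6 and 14.1) had all RP libraries below them. Against Normal, Kctd12b was not called without Normal replicate 2 or 3, Cisplatin replicate 1 or 2 or RP replicate 1, 2 or 3 (adjusted p of 0.0573 to 0.204) and Ppfibp2 was not called without Normal replicate 1, 2 or 3 or RP replicate 1, 2 or 3 (adjusted p of 0.0516 to 0.165), whereas Slc25a25 and Stard3 were called whichever library was left out. With Tap1 and Isg20 above, these were the 6 named genes with that pattern at 5 CPM or more.

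**Figure D5:**
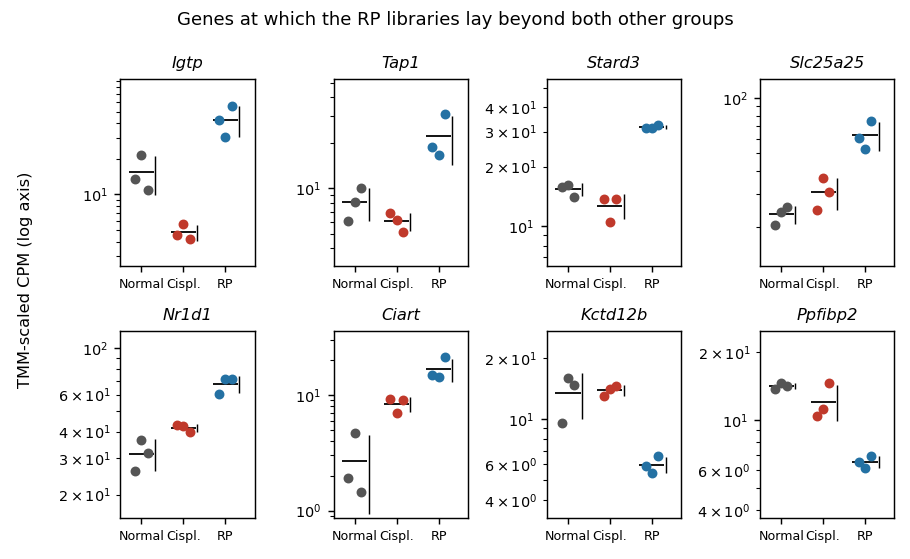
Level in each library (points; log axis, TMM-scaled CPM) of 8 genes at which the 3 RP libraries lay beyond all 6 other libraries, with the mean (horizontal line) and SD (vertical line) of 3 libraries. Igtp, Tap1, Stard3, Slc25a25, Nr1d1 and Ciart lie above and Kctd12b and Ppfibp2 below.

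Among genes of at least 100 CPM, the held genes with the narrowest intervals included the chaperone adaptor gene Sgta (137, 143 and 146 CPM in Cisplatin and 139.6, 139.8 and 148 in RP, 95% interval -0.24 to 0.25), Skp1a, the SCF ligase subunit that Fbxo32 binds (-0.20 to 0.27), the single-stranded DNA binding protein gene Purb (-0.34 to 0.14), Mut of the mitochondrion (-0.34 to 0.13), Rac1 (-0.45 to 0.03), Spop, a substrate receptor of a cullin ligase (-0.07 to 0.41), and the myosin chaperone gene Unc45b (0.04 to 0.51). The interval of Unc45b lies wholly above 0, and the gene was called as risen with library size as the sole scaling (adjusted p = 0.0066), with a filter of 5 CPM (adjusted p = 0.0136) and with limma-voom (adjusted p = 0.0443). Spop was called as risen with library size as the sole scaling (adjusted p = 0.032). The same scaling called Atg9a, Capn2, Eif4g2, Fxyd1, Pik3ca, Stub1 and Tef, all held above, as risen (adjusted p of 0.0187 to 0.0406). A filter of 5 CPM called Atg9a, Capn2 and Tef as risen too (adjusted p of 0.0406 to 0.0472). Over the lists, held members took the largest shares among mitochondrial ribosomal proteins (16 of 45), tricarboxylic acid cycle enzymes (8 of 22), splicing factors (13 of 38), ubiquitin, E1 and E2 genes (7 of 21), and autophagy and lysosomal genes (9 and 9 of 28), against 12.5% of all genes tested. Cell cycle genes could hardly be read: of 32 listed 21 passed the filter, 5 rose, 3 fell and most of the rest were open, with Cdk4 held (-0.48 to 0.41), Ccnd2 rising (1.55 ± 0.22) and Pcna falling (-1.30 ± 0.20). The risen count was 3 without any 1 of Cisplatin replicates 1 and 3 and RP replicate 2.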

How the data were processed

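Per the labels' protocols, RNA was taken up in Trizol and 500 ng went into a Lexogen QuantSeq library, so levels are compared within a gene only. The authors deposited raw read counts per gene symbol, 1 table per sample. Bowtie2, edgeR and the mm10 build are named, without versions, in the submitters' processing notes; the sources used here name no counting program, strand setting or annotation, so reads of overlapping, antisense and near-identical genes cannot be told apart. From the deposited counts, 79 rows sharing 35 symbols were summed (23238 symbols) and 12859 genes passed filterByExpr of edgeR 4.0.16 (R 4.3.3). The main test was glmQLFit and glmQLFTest with TMM scaling and group as the sole term, on all 9 libraries, with Benjamini-Hochberg adjustment and a threshold of 0.05. SE is the log2 fold change over the square root of F. Replicates differed by more than counting error (chi-square per degree of freedom 11.3 to 28.9). Depth per library was 8196030 to 10678342 counts, and floors of 3 counts cover counting error only, as reads carry no molecular identifiers.

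The members, the 66 lists and the rules were chosen with earlier results of these data known. Named genes are Fbxo32 and Trim63; the 15 largest rises and falls without overlap between groups and averaging 5 CPM or more, unnamed gene models left out; per list up to 4 called members by p, up to 2 held members by interval and those called against its majority; the 10 narrowest held genes of at least 100 CPM; and up to 10 genes apart from both groups or moving the same way in both steps. Alas2, Cish, Eda2r, Gdf15, Kera, Mstn, Mtf1, Myh2, Per1, Pfkfb3, Psma3, Psmd4, Psmd8, Rn45s and Timd4 were named after their values were seen. A few genes that the rule names are not reported here. Motifs were searched in the 250 bases before RefSeq starts (GRCm38.p6), and gene positions come from GENCODE M21 (GRCm38). On simulated data for this comparison, 51 of 100 genes with a log2 change of 1 were recovered, as were 84 of 100 with a change of 2, and 10 of 12659 unchanged genes were called. Few genes were changed there, whereas 48.8% were called in the real comparison. The p needed to pass the adjusted threshold was therefore smaller in the simulation, and its counts do not give the recovery here. Alternatives were RLE or library size scaling, other filters, DESeq2 1.42.0, limma-voom 3.58.1, the 2 groups alone, a replicate block, and leaving out Rn45s or a library; some were run for RP against Normal as well. Figures used matplotlib 3.10.9 in Python 3.11.15.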

Additional observations from a re-analysis of the deposited data

How the results depend on the processing

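Risen and fallen genes numbered 3167 and 3110, and every alternative tried stayed within 1.5 times of these counts, with no called gene reversed in any of them. RLE scaling gave 3100 and 3171, library size alone 3678 and 2435, no filter 3257 and 3068, a filter of 5 CPM 2852 and 2743, DESeq2 3127 and 3148, limma-voom 3085 and 3192, the 2 groups alone 2924 and 2973, and leaving out Rn45s 3129 and 3141. Leaving out each library in turn gave 2586 to 3123 risen and 2625 to 3113 fallen genes, lowest without RP replicate 2. Leaving out RP replicate 3 and Cisplatin replicate 3 together, chosen after seeing the data for their Rn45s share, gave 2699 and 2719. The replicate block gave 3163 and 3129. Libraries with the same number correlated in their deviations by 0.023, 0.18 and 0.167, and those with unlike numbers by -0.209 to 0.081. These values do not settle whether the numbers pair libraries. The labels state no pairing, so none was used in the main test. Of 346 genes named, 27 changed side of the threshold against Cisplatin in at least 1 alternative. Risen counts of 4 in the E3 ligase, DNA repair and amino acid transporter lists became 2 with those 2 libraries left out. Against Normal, where all alternatives were chosen after seeing the data, 24 genes were higher and 41 lower in RP. No filter gave 123 and 170, library size alone 36 and 24, RLE scaling 23 and 42, and a filter of 5 CPM 21 and 38. Leaving out each library gave 8 to 59 higher and 14 to 62 lower genes; the cause was not tested.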
